A study of Mus musculus with 8 samples.

Results

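The genes described here are 10 early neuron genes that encode proteins of the neuronal cytoskeleton and growth cone and neuronal RNA-binding proteins: Tubb3, Dcx, Map2, Mapt, Stmn2, Gap43, Nefl, Nefm, Elavl3 and Elavl4. They were chosen by name, and all non-control probes that carry one of these names were taken. This gave 16 probes of the 55681 on the array and 10 of its 36163 gene names. Exact names found 9 of the genes with 14 probes, while Map2 stands on the array under the older name Mtap2 and was matched through its RefSeq accession. Dcx and Mapt have 3 probes each, Map2 and Elavl4 have 2 each, and the remaining 6 genes have 1.

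A young neuron extends an axon and dendrites along bundles of microtubules, and these genes cover the parts of that machinery. Tubulins form the microtubule, microtubule-associated proteins bundle and stabilize it, stathmins bind free tubulin, neurofilaments fill the growing axon, and ELAV-like proteins bind AU-rich elements of neuronal mRNAs. Argonaute (Ago) proteins carry microRNAs to target mRNAs as the core of the RNA-induced silencing complex (RISC), so the RNA that precipitates with Ago samples the mRNAs held by that complex.

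Total RNA and Ago–RNA were profiled on Agilent one-color arrays at 4 steps of neuralization of E14Tg2A cells, a mouse embryonic stem (ES) cell line of the 129/Ola strain. ES cells (0 days of in vitro differentiation, DIV) were grown with fetal calf serum and leukemia inhibitory factor (LIF), epiblast-like aggregates (ELA, 2 DIV) floated in chemically defined minimal medium (CDMM) with N2 and B27 supplements, and neural progenitor cells (NPC, 6 DIV) were replated on poly-ornithine and laminin in that medium. Neural precursors (NPC/Neu, 10 DIV) were dissociated and replated once more and kept in CDMM without B27. Ago–RNA was precipitated from the cytosolic fraction with the pan-Ago antibody 2A8, and all groups come from this 1 unmodified cell line. There were 8 arrays with 1 array per condition, each of which held RNA pooled from 3 independent experiments. No condition has a replicate, so no p-value is given, and the error beside a value is the SD between spots of 1 probe, measured on 399 probes printed in 10 spots each. That SD covers the array alone and not the spread between cultures, precipitations or hybridizations. With 1 array per condition, the full error of a value is not known.

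Between 53.45% and 61.22% of the spots of an array were well above background, and 0 were saturated. Total RNA of 9 of 10 naive pluripotency markers fell by at least 1 on the log2 scale from ES to ELA, against 4.57% of all gene names. The exception was Pou5f1 (−0.45). From NPC to NPC/Neu, however, 4 of 9 above background on an array rose by at least 1, against 5.37%. These were Esrrb (1.96), Fgf4 (1.56), Klf2 (1.29) and Zfp42 (1.06). From ES to NPC/Neu, 10 of 10 naive markers fell by at least 1 (median change −4.90). Neural progenitor markers rose by at least 1 in 9 of 10 genes over the same span (median 2.53, and Sox2 was the exception at 0.12). Of 11 glial markers above background on an array, 4 rose by that amount (Olig1, Olig2, Pdgfra and Mbp) and 2 fell (Aldh1l1 and Cnp). Of all gene names, 15.9% rose by that amount over this span. Gfap, the intermediate filament of astrocytes, had a log2 signal between 6.81 and 6.95 on the 4 total RNA arrays. The lowest signals well above background on those arrays were 6.74 to 6.96. The Gfap values thus lie near the limit of detection and do not show an unchanged level.

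Each probe is a 60-base oligonucleotide that lies, for 13 of the 16 probes, in the 3′ UTR. The pair of probes that lie wholly in coding sequence are shown here because they read the protein-coding part of Mapt and Nefm, and because Nefm is the only gene of the set printed in 10 spots. Coordinates are of the mm9 build. The Mapt probe lies on the plus strand at chr11:104189430-104189489, in coding sequence near the stop codon. The Nefm probe lies on the minus strand at chr14:68738193-68738252, in coding sequence, and differs from the genome at 1 base.
Mapt: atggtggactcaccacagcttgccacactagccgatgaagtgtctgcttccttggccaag
Nefm: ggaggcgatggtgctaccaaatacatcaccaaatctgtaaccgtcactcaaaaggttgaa

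Total RNA of the early neuron genes rose with neuralization, and most of the rise came at the last steps. From ES to NPC/Neu, 9 of the 10 genes rose above the study's threshold of 2.5 on the log2 scale, against 4.17% of the 25660 gene names compared, and 10 of 10 rose by at least 1, against 15.9%. With signals scaled to the 75th percentile these counts were 7 and 9, where Stmn2 was at 0.64. The median change was 4.07, against −0.05 over all gene names, with 1.30 for Stmn2 at the low end. The upper end cannot be ranked, since the change was 4.96 for Map2 and at least 4.14 for Dcx, whose probes were not well above background in ES. These are bulk samples, in which fewer cells of a type and less RNA per cell cannot be told apart.

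**Figure D1:**
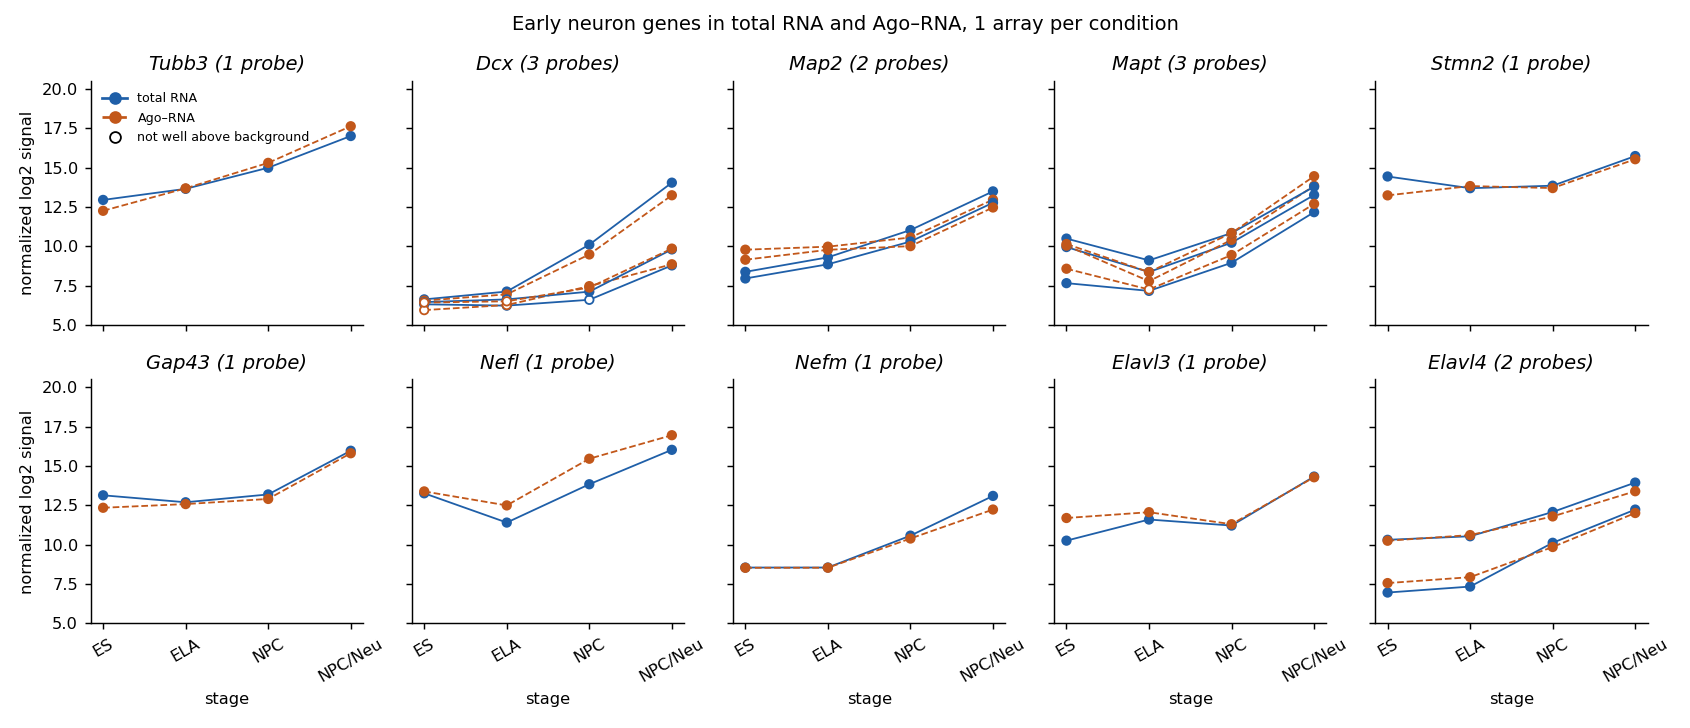
Normalized log2 signal (y axis) of each probe of the 10 genes at the 4 stages (x axis), in total RNA (blue, solid) and Ago–RNA (orange, dashed), 1 array per point, with open points for probes not well above background. All 10 genes have their highest total RNA and highest Ago–RNA signal in NPC/Neu, and the paths differ at ELA, where Mapt and Nefl dip and Elavl3 is raised.

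The steps did not contribute evenly. Between ES and ELA, the members' median change in total RNA was 0.10 against 0.00 over all gene names. Elavl3 alone rose by at least 1 (1 of 10, against 4.45%), although Map2 also did with smaller offsets and both Map2 and Dcx did with the processed intensity (3 of 10). At the same step 2 of 10 fell by at least 1, namely Mapt and Nefl (against 4.57%), and 0 of 10 passed 2.5, against 0.207%. Between ELA and NPC the median was 1.47 and 7 of 10 genes rose by at least 1 (against 10.3%), but 0 of 10 passed 2.5, against 1.66%. The latter count depends on the setting, since Mapt (2.51), Nefl (2.52) and Elavl4 (2.91) passed with the quantile-normalized processed intensity, and Dcx (2.98) passed at its brightest probe. Between NPC and NPC/Neu the median was 2.49, all 10 rose by at least 1 (against 5.37%) and 5 of 10 passed 2.5, against 0.581%. Those 5 were Dcx, Mapt, Gap43, Nefm and Elavl3, and between 4 and 6 genes passed under the other settings, with Dcx, Mapt, Gap43 and Elavl3 in each. The SD between spots of such a change was 0.175, 0.157 and 0.126 at the 3 steps.

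**Figure D2:**
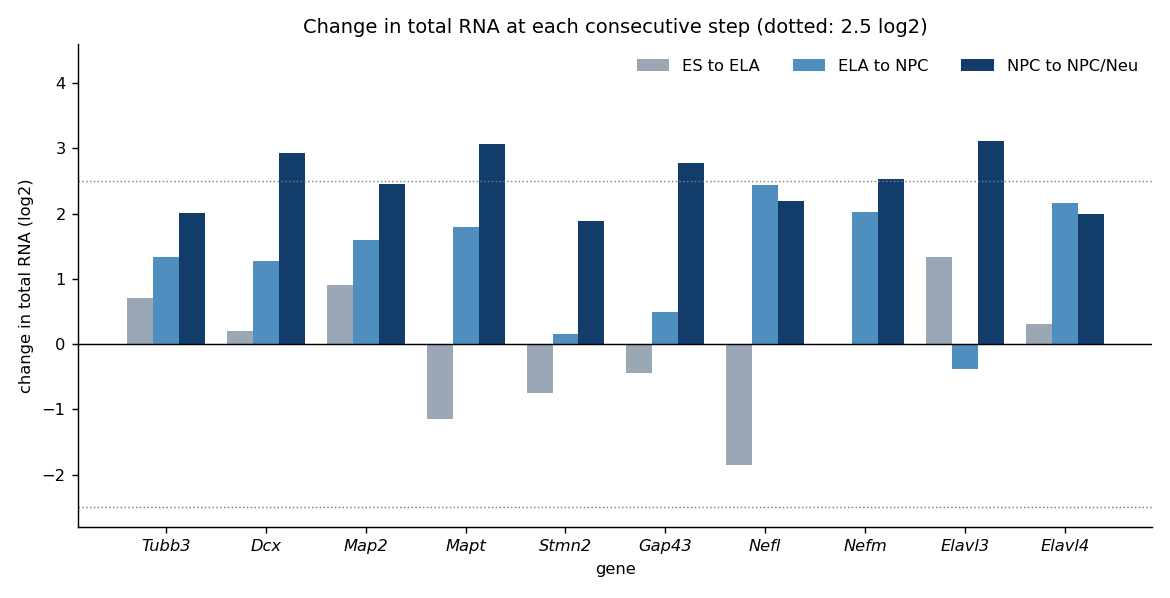
Change in log2 total RNA (y axis) at each of the 3 consecutive steps (bar colors) for each gene (x axis), from 1 array per stage, with dotted lines at 2.5 and −2.5. The bars of NPC to NPC/Neu are all positive, between 1.88 for Stmn2 and 3.11 for Elavl3, while those of ES to ELA run from −1.86 for Nefl to 1.34 for Elavl3.

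Tubb3 encodes class III beta-tubulin, the tubulin isotype commonly used to stain neurons. Its log2 total RNA signal was 12.95, 13.65, 14.99 and 17.01 from ES to NPC/Neu, and its Ago–RNA signal was 12.26, 13.68, 15.30 and 17.63 at the same stages. The signal rose at each step in both fractions, with no neighbouring stages closer than 0.70 in total RNA. The rise from ES to NPC/Neu was 16.7-fold in total RNA and 41.4-fold in Ago–RNA.

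Map2 encodes a microtubule-associated protein of dendrites. Over its 2 probes, log2 total RNA was 8.17, 9.08, 10.67 and 13.13 from ES to NPC/Neu, a 31.2-fold rise. Ago–RNA was 9.47, 9.88, 10.29 and 12.71, a 9.5-fold rise. The Ago–RNA signal therefore lay above that of total RNA in ES and ELA and below it in NPC and NPC/Neu, at both probes.

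Mapt encodes tau, the microtubule-associated protein of axons. Over its 3 probes, log2 total RNA was 9.37, 8.21, 10.01 and 13.07 from ES to NPC/Neu, and Ago–RNA was 9.59, 7.80, 10.23 and 13.66. The lowest stage was ELA in both fractions. Total RNA of the coding probe shown above fell by 1.59 from ES to ELA and then rose by 1.86 and 3.03. The probe nearest the 3′ end was not well above background in ELA, and its fall from ES was at least 0.49. From ES to NPC/Neu the 3 probes rose by 3.31, 3.29 and 4.51.

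Dcx encodes doublecortin, a microtubule-binding protein of migrating young neurons, and its probes are in a 3′ UTR of 7709 bases. The distal probe, 469 bases from the transcript's end, gave log2 total RNA signals of 6.63, 7.13, 10.11 and 14.04 from ES to NPC/Neu, and Ago–RNA signals of 6.55, 6.95, 9.48 and 13.24. It was not well above background in either fraction in ES, so that its rise in total RNA to NPC/Neu was at least 158-fold. The probes 5508 and 5952 bases from the end reached 8.79 and 9.80 in total RNA of NPC/Neu, and their rises were at least 4.13-fold and at least 8.35-fold. A rise bounded in this way is that of NPC/Neu over the lowest signal well above background on the ES array, or over the probe's own where that is higher. All 3 probes were highest in NPC/Neu. These bounds do not show whether the probes differ in the size of the rise, and over their mean the rise was at least 17.6-fold.

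Stmn2 encodes stathmin-2 (SCG10), a tubulin-binding protein of growth cones. Its log2 total RNA signal was 14.44, 13.69, 13.85 and 15.73 from ES to NPC/Neu, and Ago–RNA was 13.24, 13.83, 13.70 and 15.53. ELA and NPC lay 0.16 apart in total RNA, against an SD between spots of 0.061 for probes with a signal of at least 11, but the order of these stages turned when signals were scaled to the 75th percentile (−0.12). Both lay below ES. Its rise from ES to NPC/Neu was 2.46-fold. Gap43, a membrane protein of the growth cone, had a similar course, with log2 total RNA of 13.14, 12.69, 13.19 and 15.97 and Ago–RNA of 12.35, 12.58, 12.91 and 15.81. ES and NPC could not be told apart in total RNA of Gap43, and nearly all of its 7.11-fold rise fell between NPC and NPC/Neu (6.85-fold).

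Nefl and Nefm encode the light and medium neurofilament subunits and are neighbours on mouse chromosome 14, where the GENCODE model of Nefm spans Nefl on the opposite strand. Their total RNA differed at the ELA step. Nefl had log2 total RNA of 13.26, 11.41, 13.84 and 16.03 and Ago–RNA of 13.38, 12.49, 15.46 and 16.95, and its total RNA fell by 1.86 from ES to ELA before it rose by 2.43 and 2.19. Nefm had total RNA of 8.55 ± 0.14 (SD, n = 10 spots), 8.55 ± 0.20 (n = 9 spots), 10.57 ± 0.14 (n = 10 spots) and 13.10 ± 0.10 (n = 9 spots), so that ES and ELA were equal within the spread of its spots. Its Ago–RNA signal was 8.53, 8.54, 10.39 and 12.23. From ES to NPC/Neu, total RNA rose 6.79-fold for Nefl and 23.4-fold for Nefm.

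Elavl3 and Elavl4 encode the neuronal ELAV-like proteins HuC and HuD. Elavl3 had log2 total RNA of 10.26, 11.60, 11.21 and 14.33 from ES to NPC/Neu, and Ago–RNA of 11.69, 12.06, 11.30 and 14.28. It was the only gene of the set that rose by over 1 at the ES to ELA step and fell at the next (by 0.38), and its rise of 3.11 from NPC to NPC/Neu ranked 50 among 24624 gene names. Elavl4 followed another course, with a rise of 0.30, 2.16 and 1.99 at the 3 steps over its 2 probes. Those probes had total RNA of 6.96, 7.34, 10.12 and 12.23 and of 10.31, 10.53, 12.08 and 13.95. Both rose at every step, by 5.27 and 3.64 in all.

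Related genes of the same families did not all share this rise. Over all gene names, 15.9% rose by at least 1 from ES to NPC/Neu, the share that stands beside the counts of the lists below. The share that fell by at least 1 over this span is not given, so the counts of falls have no background beside them. Of 20 other tubulin and microtubule-binding genes, 12 rose and 3 fell by at least 1 from ES to NPC/Neu (median 1.60), and 10 rose and 4 fell when signals were scaled to the 75th percentile (median 0.91). Stmn4 and Stmn3, relatives of Stmn2, rose by 4.30 and 4.15, well above the 1.30 of Stmn2 itself, and Stmn1 rose by 1.62. Among tubulins, Tubb2b rose by 3.32 and Tubb2a by 1.58, while Tuba1c fell by 1.58 and Tubb6 by 1.16. Dclk1, the doublecortin-like kinase, rose by 3.25, and Map1b and Map1a rose by 3.53 and 2.45. Map7 fell by 2.89.

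Of the 6 other intermediate filament genes of neural cells, 3 rose and 2 fell by at least 1. Nefh, the heavy neurofilament subunit, fell by 4.31 from ES to NPC/Neu, against the rise of Nefl and Nefm, and Prph (peripherin) fell by 2.92. Ina (alpha-internexin) changed by −0.31, −1.59 and 3.01 at the 3 steps, which left it 1.11 above ES. Vim and Nes, filaments of neural progenitors, rose by 4.40 and 2.70.

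Of 16 other neural RNA-binding genes, 10 rose and 1 fell by at least 1 (median 1.43). Srrm4, a neuronal splicing regulator, rose by 6.21 and Celf3 by 5.02. Ptbp1, a repressor of neuronal exons, fell by 1.03. Elavl1 (HuR), the widely expressed relative of Elavl3 and Elavl4, rose by 1.15, and Elavl2 (HuB) changed by 0.77. Of 14 growth cone and axon genes, 11 rose and 0 fell by at least 1 (median 2.73), led by Dpysl4 at 6.27 and Gprin1 at 4.65.

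Synaptic vesicle genes had a smaller change than the early neuron genes, with 6 of 10 that rose by at least 1 and a median of 1.49, and 0 that fell. Syt1, the calcium sensor of vesicle release, rose by 4.18 and Rab3a by 3.21. Progenitor markers stayed high when the neuron genes rose. From NPC to NPC/Neu, 10 of 10 early neuron genes and 5.37% of all gene names rose by at least 1. Of the progenitor markers, 2 of 10 rose and 0 fell by that amount (median 0.38). Their summed linear total RNA signal was 41580, 76070, 300800 and 587300 from ES to NPC/Neu, a sum that the brightest probes carry, with Vim and Fabp7 supplying 69.3% of it in NPC/Neu. That of the 12 glial markers was 8362, 10090, 14280 and 9862. Of 8 neural crest and peripheral neuron markers, 3 rose and 2 fell by at least 1 from ES to NPC/Neu (median 0.74). The part of any of these cell types in the rise of the neuron genes was not tested.

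**Figure D3:**
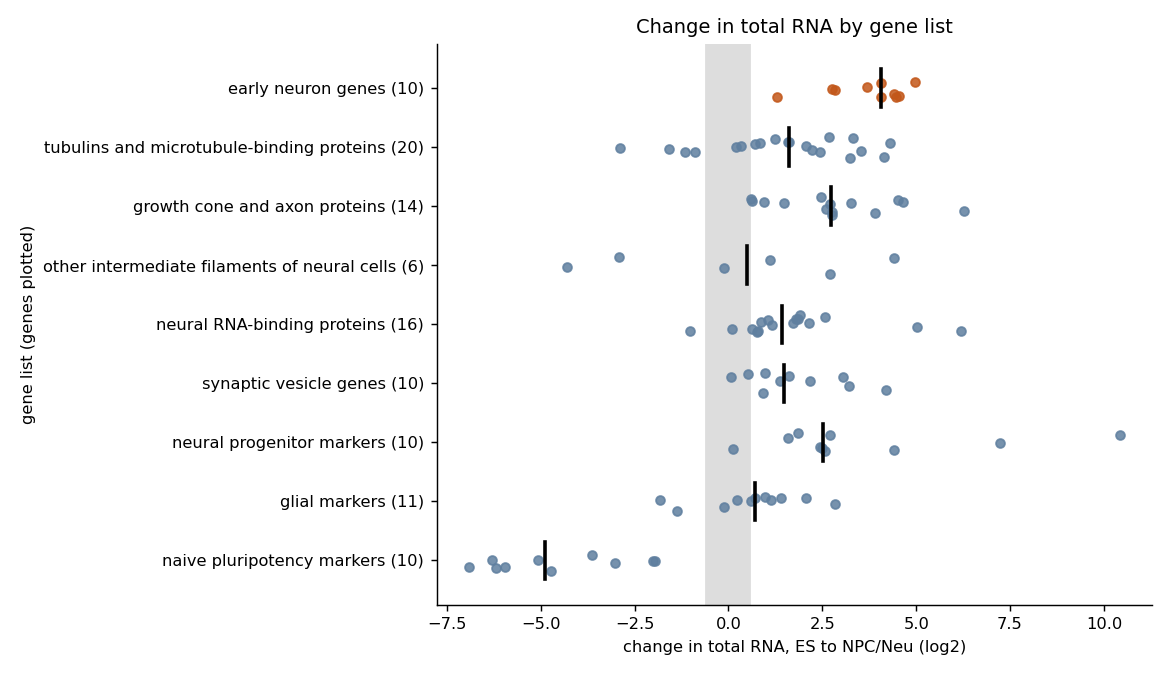
Change in log2 total RNA from ES to NPC/Neu (x axis) for the 10 early neuron genes and for related gene lists (y axis), with 1 point per gene, a black bar at each median and a grey band from the lower to the upper quartile of all gene names. The early neuron genes have the highest median of the lists plotted, at 4.07, and naive pluripotency markers the lowest, at −4.90.

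Ago enrichment, the log2 Ago–RNA signal minus the log2 total RNA signal, showed no direction common to the 10 genes. An mRNA was taken as bound where its Ago–RNA signal was above 7.82. This lies 3 SD above the centre of the lower peak when a mixture of 2 normal distributions is fitted to all Ago–RNA signals. By this rule 9 of the genes were bound at the ES stage, 8 at the ELA stage and all 10 afterwards. The genes below it were Dcx in ES and Dcx and Mapt in ELA. Mapt lay just below it, at 7.80, and its probe at the stop codon was above it, at 8.36. The median enrichment of the bound genes was 0.12, 0.24, −0.03 and −0.18 from ES to NPC/Neu, against 0.09, −0.01, 0.06 and 0.12 over all bound gene names. The SD of enrichment between spots was 0.129, 0.151, 0.134 and 0.129.

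An enrichment of at least 1 was seen in 2 of 9 bound genes in ES (against 13.7% of all bound gene names), in 1 of 8 in ELA (against 4.94%), in 1 of 10 in NPC (against 7.19%) and in 0 of 10 in NPC/Neu (against 15.0%). These were Map2 and Elavl3 in ES and Nefl in ELA and NPC, which Map2 in ELA (1.00) and Mapt in NPC/Neu (1.05) joined with separate normalization of the fractions. An enrichment of −1 or lower was seen for Stmn2 in ES (1 of 9, against 12.0%), where it was −0.76 with separate normalization of the fractions, and in 0 of 8, 0 of 10 and 0 of 10 genes at the later stages, against 2.03%, 5.68% and 11.7%. Counts of 2 genes or fewer do not set these genes apart from the background shares.

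**Figure D4:**
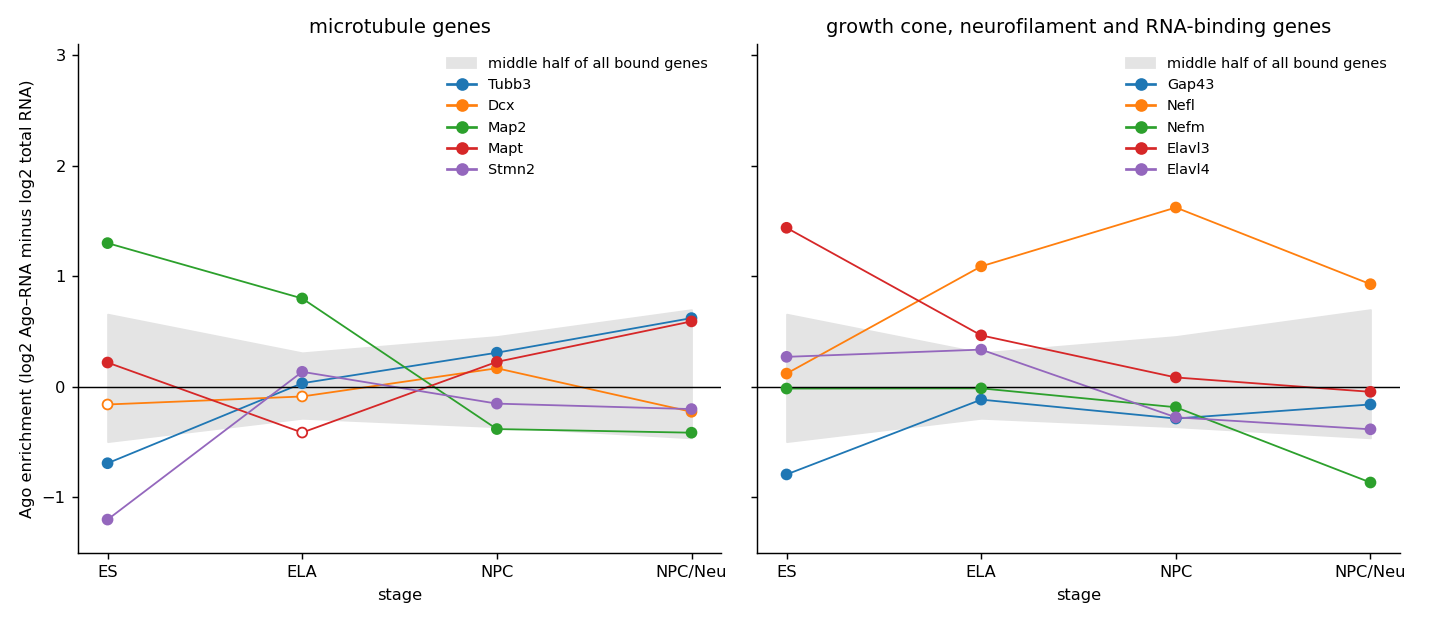
Ago enrichment (y axis, log2) of the 10 genes at the 4 stages (x axis), 1 Ago–RNA and 1 total RNA array per stage, with open points where a gene is below the binding threshold and a grey band from the lower to the upper quartile of all bound gene names. Map2 and Elavl3 start highest in ES, at 1.30 and 1.44, Nefl is highest in NPC, at 1.62, and Nefm is lowest in NPC/Neu, at −0.86.

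Map2 and Elavl3 had their highest enrichment in ES and lower values in NPC and NPC/Neu than in ELA. Which of NPC and NPC/Neu was lowest was not settled. The change between them was −0.03 for Map2 and −0.13 for Elavl3, and it took either sign under other settings (−0.06 to 0.25 and −0.14 to 0.11). The enrichment of Map2 was 1.30, 0.80, −0.38 and −0.41 from ES to NPC/Neu, and both probes crossed 0 between ELA and NPC (from 0.68 to −0.47 and from 0.92 to −0.29). The enrichment of Elavl3 was 1.44, 0.47, 0.09 and −0.04. Nefl took an opposite course, with 0.12, 1.09, 1.62 and 0.93 from ES to NPC/Neu. Under the other processing settings tried, enrichment stayed between 1.30 and 1.71 for Map2 in ES, between 1.44 and 1.84 for Elavl3 in ES, and between 1.61 and 1.99 for Nefl in NPC. The later values of Map2 and Elavl3 in NPC/Neu lay near 0 and took either sign, with ranges of −0.53 to 0.06 and −0.05 to 0.39, while that of Map2 in NPC lay between −0.47 and −0.02.

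Apart from Stmn2 in ES, the other genes stayed below 1 in size at every stage with the processing reported. Of the 40 values over genes and stages, 19 changed sign under another processing setting, among them those of Dcx at every stage and those of Gap43 after ES. Stmn2, Gap43 and Tubb3 were lower in Ago–RNA than in total RNA in ES, at −1.20, −0.79 and −0.69, and reached 0.14, −0.12 and 0.03 in ELA. Tubb3 then rose to 0.31 in NPC and 0.62 in NPC/Neu. Enrichment over all bound gene names also drew nearer to 0 in ELA. Its lower and upper quartiles were −0.495 and 0.66 in ES and −0.28 and 0.31 in ELA. Mapt was at 0.22, −0.41, 0.23 and 0.59, although its 3 probes ranged from −0.35 to 0.92 in ES. Elavl4 was at 0.27, 0.34, −0.28 and −0.38. The probes of Dcx differed, and the distal one was at −0.62 in NPC and −0.80 in NPC/Neu. The probe 5508 bases from the transcript's end was at no less than 0.72 in NPC and at 0.07 in NPC/Neu. The probe 5952 bases from it was at 0.26 and 0.05. Over its 3 probes, Dcx was at 0.17 in NPC and −0.23 in NPC/Neu. The enrichment of Nefm was −0.02 ± 0.09 in ES (SD, n = 10 spots), 0.00 ± 0.17 in ELA (n = 9 spots), −0.18 ± 0.06 in NPC (n = 10 spots) and −0.89 ± 0.04 in NPC/Neu (n = 9 spots), paired by spot. All spots lay below 0 in NPC (−0.33 to −0.13) and in NPC/Neu (−0.97 to −0.84), while those of ES and ELA lay on both sides of it. Under other settings the NPC value took either sign, between −0.21 and 0.19, and the NPC/Neu value lay between −0.91 and −0.39.

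The variation of enrichment between consecutive stages reached the study's 1.5 in 0 of 9 genes from ES to ELA, 0 of 10 from ELA to NPC and 0 of 10 from NPC to NPC/Neu, against 4.59%, 1.73% and 1.51% of all gene names. A variation of at least 1 was seen for Stmn2 from ES to ELA (1.34, 1 of 9, against 9.31%), and one of −1 or lower for Map2 from ELA to NPC (−1.18, 1 of 10, against 3.77%). Under some other settings Nefl joined Stmn2 (up to 1.12), and Elavl4 joined Map2 (−1.04). Some settings also brought Elavl3 to −1.03 from ES to ELA and Mapt to 1.06 from ELA to NPC. From NPC to NPC/Neu, Dcx reached −1.03 and Nefl −1.07 under some settings. The SD of such a variation between spots was 0.196, 0.206 and 0.1765 at the steps in order.

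Enrichment also differed with transcript length over all genes, so each gene was set beside the 500 bound gene names nearest to it in length. In NPC/Neu the median enrichment of such genes was −0.22 at the length of Gap43, 1420 bases, and 0.95 at that of Dcx, 9074 bases. Against these medians, Nefm lay 1.20 lower, Dcx 1.18 lower, Map2 1.12 lower, Elavl4 0.87 lower and Elavl3 0.69 lower in NPC/Neu. Tubb3 lay 0.74 higher and Nefl 0.66 higher, while Mapt, Stmn2 and Gap43 lay within 0.13 of them. In ES, by contrast, Elavl3 and Map2 lay 0.76 and 0.53 above genes of like length and Stmn2 1.08 below. The largest departure at any stage was that of Nefl in NPC, 1.49 above such genes, and Nefl lay 1.06 above them in ELA. Map2 lay 0.80 below them in NPC.

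Other microtubule-associated proteins followed another course than Map2. Map1a had 1.79, 0.54, 1.18 and 1.80 from ES to NPC/Neu, Map1b had 1.92, 0.42, 1.08 and 1.59, and Map4 had 1.58, 0.43, 0.81 and 1.37. Map6 was at 0.89, 0.26, 0.78 and 1.38. Map7 had 0.65, 0.16, 0.61 and 0.36, but its Ago–RNA signal was below the binding threshold in NPC (7.72) and NPC/Neu (7.67). Map1a, Map1b and Map4 lay above Map2 in ES and below it in ELA, and Map6 lay below it at both stages. Map1a, Map1b, Map4 and Map6 rose again after ELA, whereas Map2 was higher in ELA than in either later stage. The 500 bound gene names nearest to Map2 in length had medians of 0.77, 0.30, 0.42 and 0.71. Their fall to ELA and later rise was therefore not particular to these relatives. The order of the stages rests on 1 array pair per stage, and the difference between Map2 and its relatives was not tested. Stmn3 was low at every stage, at −1.66, −0.61, −0.97 and −1.41, and in NPC/Neu it lay apart from Stmn2, at −0.20. Like Elavl3, Msi2 (Musashi-2) of the RNA-binding group fell from ES to ELA and again to NPC, with 1.74, 1.21, −0.26 and −0.31.

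**Figure D5:**
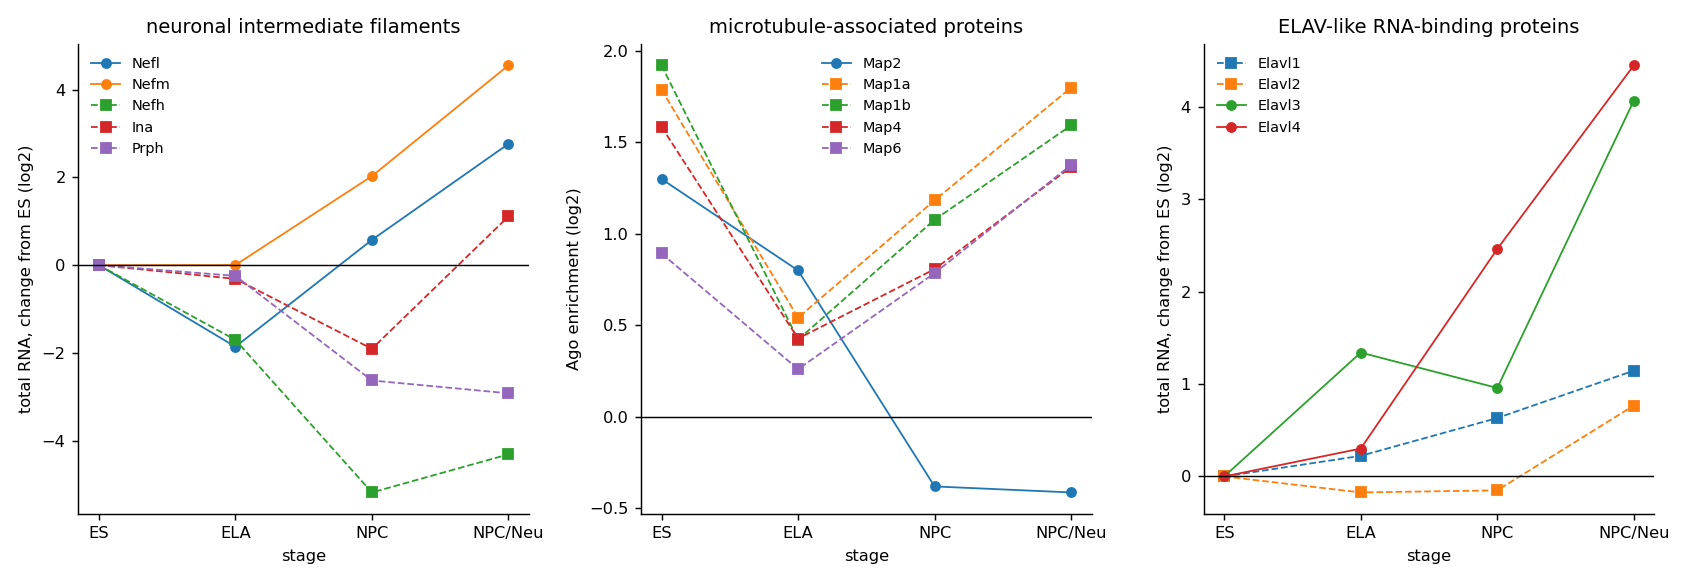
Early neuron genes (solid lines, circles) beside relatives (dashed lines, squares) at the 4 stages (x axis), as change in log2 total RNA from ES (left and right) and as Ago enrichment (middle), 1 array per condition. Nefh and Prph fall to −4.31 and −2.92 while Nefl and Nefm rise, Map2 ends at −0.41 below the 1.37 to 1.80 of Map1a, Map1b, Map4 and Map6, and Elavl1 and Elavl2 change less than Elavl3 and Elavl4.

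The gene names whose signals over the 8 arrays, centred on their own mean, lay nearest to the mean profile of the 10 genes were Slc14a2 (distance 0.23), Myt1 (0.47), Bhlhe22 (0.49), Pcdhb7 (0.58) and Pcdhb15 (0.70), of 19868 candidates. The 10 genes themselves lay between 0.79 for Dcx and 2.45 for Stmn2 from that mean, so the set is more varied than its average. Myt1 had log2 total RNA of 5.94, 5.82, 7.22 and 9.62, and Bhlhe22 had 6.75, 6.97, 8.18 and 10.83. Probes of Myt1, Bhlhe22, Pcdhb7 and Pcdhb15 were not well above background on the ES and ELA arrays, where their values have no order.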

How the data were processed

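The authors pooled RNA of 3 independent experiments for each of the 8 arrays and deposited spot intensity as Feature Extraction wrote it (version 10.7.3.1 per the file headers, 9.1 per the labels), not normalized between arrays. Mean and background intensity were corrected here in R 4.3.3 by the normexp method of limma 3.58.1 with an offset of 50. Irregular spots, 125 to 523 per array, were omitted. The 8 arrays were then quantile normalized together on the log2 scale, repeated probes were averaged, and a gene is the mean of its probes. The binding threshold was fitted with mclust 6.1.1. Probes were matched to GENCODE transcripts of the array's build, or placed by their coordinates. Python 3.11.15 with numpy 2.4.6 and pandas 2.3.3 served for all other steps, and the code was tested on simulated data. All 8 arrays share 1 slide. The genes, lists and naming rule were chosen with earlier results of these data known: all 10 genes are named, with their family relatives and, in each list, those that rose or fell most. Alternatives were offsets of 16 and 0, the processed intensity, separate normalization of Ago–RNA and total RNA arrays, a filter on dim probes, the brightest probe, irregular spots kept, and leaving out Map2, the last chosen after the data were seen.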

Additional observations from a re-analysis of the deposited data

How the results depend on the processing

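No paired analysis was possible because each condition has 1 array, and for the same reason no array could be left out. The number of genes whose total RNA rose above 2.5 from ES to NPC/Neu was 9 as reported and with an offset of 16 or 0, quantile-normalized processed intensity, separate normalization, the brightest probe and irregular spots kept. It was 8 with the filter on dim probes, which left Dcx untested, 8 without Map2 and 7 with the processed intensity scaled to the 75th percentile, where Nefl rose by 2.27 and Gap43 by 2.39. Of 40 single changes in total RNA, 39 kept their sign under every alternative. Enrichment is less settled, since 19 of 40 single values, those near 0, changed sign under some alternative, while none of at least 1 in size did. The median change from ELA to NPC was 1.47 as reported, 1.73 with offset 0, 1.95 with the processed intensity and quantile normalization, 1.77 with its 75th percentile, 1.69 with the filter on dim probes and 1.64 with the brightest probe. With the 75th percentile the median was 2.32 from NPC to NPC/Neu (2.49 as reported) and 3.77 from ES to NPC/Neu (4.07 as reported), and the latter was 3.85 with the brightest probe. Scaling to the 75th percentile also moved the median change of all gene names from ES to NPC/Neu to −0.20. Separate normalization moved the median enrichment of all bound gene names to 0.32, 0.24, 0.29 and 0.36 from ES to NPC/Neu, and that of the 10 genes, bound or not, to 0.22, 0.50, 0.27 and 0.075, from 0.05, 0.08, −0.03 and −0.18. In ES the latter was 0.21 with the processed intensity and quantile normalization and −0.16 with its 75th percentile, and in NPC it was −0.17 with the brightest probe. The single value that moved most was the rise of Dcx from ES to NPC/Neu, 4.41 over its probes, 5.56 with offset 0, 7.50 with the processed intensity and 7.42 at the brightest probe, and the cause was not tested. Dim probes limit the values of Dcx, up to NPC in total RNA, and of 1 Mapt probe in ELA, since 3 of the 16 probes were not well above background on each ES and ELA array.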
